A study of Caenorhabditis elegans with 6 samples.

Results

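The heterochronic genes lin-14, lin-28, hbl-1, lin-41, lin-42, lin-46, lin-29 and lin-66 time the larval development of Caenorhabditis elegans. They were found by symbol in a table of 41862 features, which held all 8 of them. The table reports RNA of nuclei pulled down from larvae at the L1 stage, the first stage after hatching, in 3 control and 3 mutant libraries. Controls were strain OH16748, labelled wildtype apart from the INTACT transgene otIs790, a tag for pulling down chosen nuclei. Mutants were strain OH17055, which the labels describe as INTACT plus null alleles of 6 CUT homeobox genes, namely the X-linked neighbours ceh-39, ceh-21 and ceh-41 together with ceh-48, ceh-44 and ceh-38. The labels call the tagging construct UPN and the fraction neuronal, each culture was a large synchronised population, and no untagged or input fraction was used here.

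Heterochronic genes form a regulatory cascade that gives each larval stage its own programme of cell division and fate. Early genes keep juvenile programmes running until microRNAs, chiefly lin-4 and the let-7 family, switch them off, and late genes then bring on the adult programme. The pathway was worked out in the epidermal seam cells, and several of its genes also time the maturation of neurons. The table holds 1 value per gene, so that isoforms, of which lin-14, lin-29 and lin-42 have several, could not be separated.

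The libraries held 15500882 to 20844986 reads each, recovered from the deposited values. Below, "mutant" means a library with that label. Of the 6 targeted genes, 5 were lower in every mutant library. ceh-44, also labelled null, was higher in all 3 (log2 difference 0.82, limma p adjusted by Benjamini and Hochberg, or BH, 0.0179). Mutant means of the other 5 were 0.018 (ceh-21) to 0.58 (ceh-38) of the control means. Whether the alleles remove gene function was not tested. Mutant replicates 1 and 2 lay at opposite ends of the second principal component, at 58.2 and -56.9, a component with 20.2% of the variance. The summed level of 12 neuronal markers was 347602 to 401462 normalized counts in controls and 164213 to 278864 in mutants. Past the threshold used below, 4 of them were lower and 0 higher, where 10.5% of all genes tested were lower. With the replicate number as a block, 7 were lower and 0 higher, where 26.3% of all genes were called in either direction. In bulk nuclei, fewer cells of a type and less RNA per cell cannot be told apart. The summed level of 10 body wall muscle markers was 193215 to 226038 in controls and 193028 to 239093 in mutants. Muscle RNA was thus present in the pulled-down fraction in both groups. Of these 10 markers, 0 passed the limma threshold and 0 had an unadjusted limma p under 0.05, against 18.1% and 34.8% of all genes tested.

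All 8 genes passed the filter of a mean of at least 10 normalized counts. Per kilobase of annotated exon, the scale on which genes can be ranked, their control means spanned from 4140 down to 9.02 normalized counts. lin-14, a nuclear DNA-binding protein of the first larval programme, stood at 4140 ± 1005 normalized counts per kb in controls (SD, n = 3). It was followed by lin-66 at 2806 ± 358, lin-28 at 1527 ± 24.9 and lin-41 at 962 ± 206 (SD, n = 3 each). These 4 lay at percentiles 97.6, 96.6, 93.4 and 87.8 among 14481 tested protein-coding genes, ranked over all 6 libraries. hbl-1 was intermediate at 445 ± 59.7 normalized counts per kb (SD, n = 3). The late genes lin-46 and lin-29 were lower, lin-46 at 83.2 ± 4.53 and lin-29 at 47.8 ± 12.7, and lin-42 was lowest of the 8 at 9.02 ± 2.30 (SD, n = 3 each), at percentile 11.3.

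No neighbouring genes in that order overlapped among the controls, although the gap between lin-14 and lin-66 was narrow, with the lowest lin-14 library at 3067 normalized counts per kb and the highest lin-66 library at 3024. The order of the means was the same in mutants, at 3210, 2673, 1781, 980, 308, 87.3, 48.1 and 30.0 normalized counts per kb. There, lin-14 overlapped lin-66, lin-66 overlapped lin-28, and lin-29 overlapped lin-42. In both groups the 4 early genes and lin-66 thus stood above lin-46, lin-29 and lin-42.

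**Figure D1:**
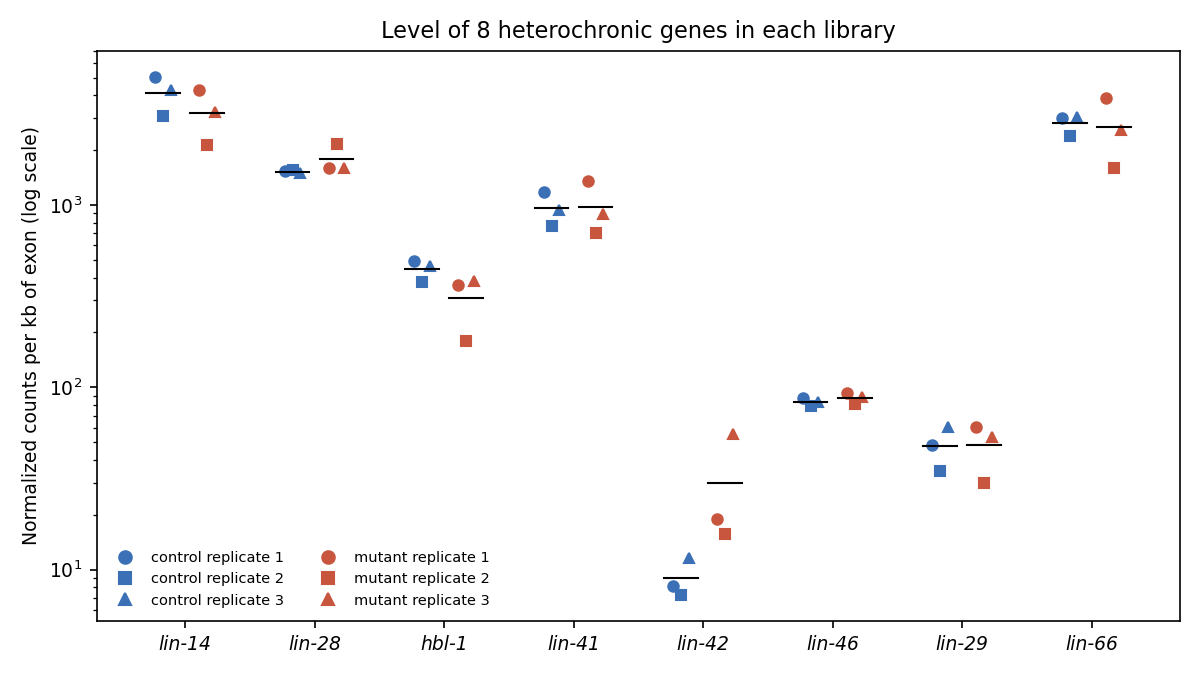
Normalized counts per kilobase of annotated exon (log axis) of the 8 genes in each library, with controls in blue, mutants in red, a marker shape per replicate number and a black bar at each group mean. The early genes and lin-66 sat above lin-46, lin-29 and lin-42 in both groups. Of the 8, only lin-42 and lin-28 had all mutant libraries above all control libraries, as did 19.5% of all genes tested.

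The main comparison asked whether RNA of these genes differed in nuclei of the CUT mutant. One of the 8, lin-42, rose past a BH-adjusted limma p of 0.05, and 0 fell. Over all 17900 genes tested, 3239 passed (18.1%), 1353 of them higher (7.56%) and 1886 lower (10.5%), so 1 of 8 is near the background. Scaling to equal totals turned that split to 2118 higher and 1357 lower. Of the 8 genes, an unadjusted p under 0.05 was reached by 1 higher and 0 lower, and edgeR and DESeq2 likewise called 1 higher and 0 lower. The median log2 difference of the 8 genes was -0.01, against -0.02 over all genes tested. Each log2 difference below is the mutant mean less the control mean of log2(value + 1).

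Among the early genes, lin-14 had 18545, 11241 and 15732 normalized counts in control replicates 1, 2 and 3. In mutant replicates 1, 2 and 3 it had 15663, 7819 and 11810. The groups overlapped, and the lowest library was mutant replicate 2. The log2 difference was -0.39 (SE 0.28, 95% interval -1.02 to 0.23, BH-adjusted limma p 0.343). Within same-numbered pairs the differences were -0.24, -0.52 and -0.41, and with the replicate number as a block the adjusted p was 0.0579. Annotated noncoding RNAs lie within lin-14 introns on the same strand. The most abundant, T25C12.5, had means of 1293 in controls and 1286 in mutants, beside 15173 and 11764 normalized counts for lin-14.

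The zinc-finger gene hbl-1, the worm relative of Drosophila hunchback, acts in the second-stage programme and is repressed by let-7 family microRNAs. It had 2213, 1694 and 2066 normalized counts in control replicates 1, 2 and 3, and 1628, 800 and 1707 in mutant replicates 1, 2 and 3. Mutant replicate 2 was again the lowest, while mutant replicate 3 just exceeded control replicate 2, so the groups overlapped. This amounted to a log2 difference of -0.60 (SE 0.28, 95% interval -1.22 to 0.02, BH-adjusted limma p 0.154). With the replicate block it passed, at an adjusted p of 0.0361 with an interval of -0.999 to -0.20, in a fit that called 26.3% of all genes. Each of the 3 same-numbered pairs was lower in the mutant, by -0.44, -1.08 and -0.28. Without mutant replicate 2 the difference was -0.25 (BH-adjusted limma p 0.356). The part of the lower neuronal markers in the hbl-1 and lin-14 values was not tested.

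lin-28 encodes an RNA-binding protein that blocks maturation of let-7 and promotes second-stage fates. Its normalized counts were 2226, 2251 and 2179 in control replicates 1, 2 and 3, and 2323, 3131 and 2308 in mutant replicates 1, 2 and 3. Every mutant library was above every control, as for 19.5% of all genes tested, but 2 of the mutant libraries lay only just above. The difference came to 0.21 on the log2 scale (SE 0.17, 95% interval -0.17 to 0.59, BH-adjusted limma p 0.415), and without mutant replicate 2 it was 0.06. Mutant replicate 2, the lowest library for lin-14 and hbl-1, was thus the highest for lin-28. The gene F02E9.1 overlaps lin-28 exons on the other strand, with means of 87.0 and 98.95 normalized counts.

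lin-41 encodes a TRIM-NHL protein that binds RNA and holds back lin-29 translation. It had 5667, 3698 and 4514 normalized counts in control replicates 1, 2 and 3, and 6479, 3374 and 4285 in mutant replicates 1, 2 and 3. Mutant libraries were both the highest and the lowest of the 6. The log2 difference was -0.00 (SE 0.25, 95% interval -0.57 to 0.56, BH-adjusted limma p 0.991), a value whose sign depends on the scaling.

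**Figure D2:**
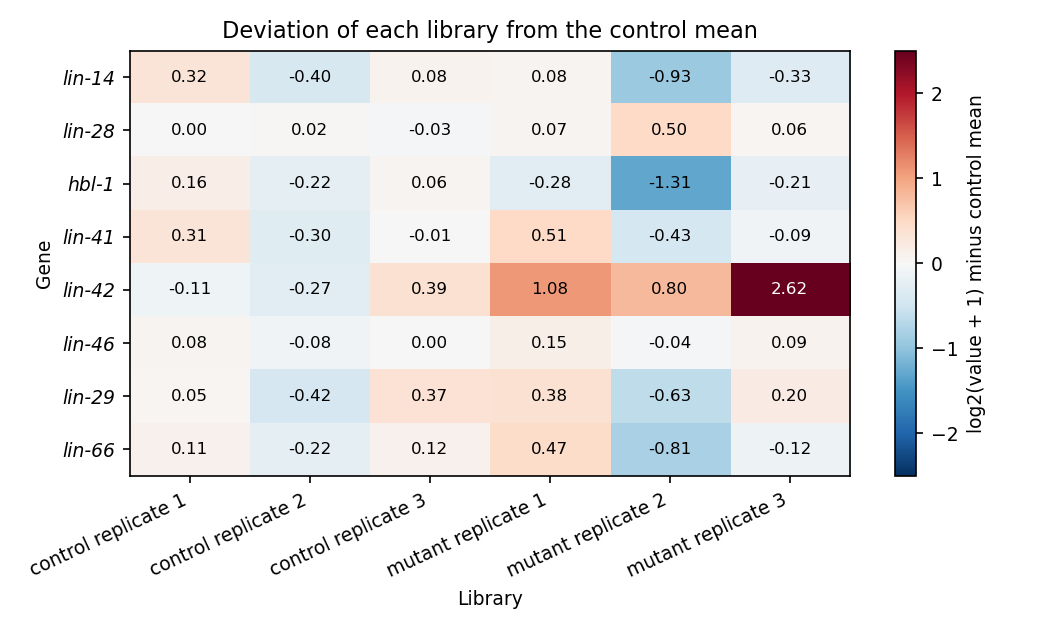
Deviation of each library from the control mean on the log2(value + 1) scale for the 8 genes (rows) in the 6 libraries (columns), with red above and blue below the control mean. Mutant replicate 2 was the lowest library for lin-14, hbl-1, lin-41, lin-29 and lin-66 and the highest for lin-28, and the largest deviation was that of lin-42 in mutant replicate 3, at 2.62.

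The 5 genes lowest in mutant replicate 2 compare with 27.5% of all genes tested that were lowest in that library. Of the 12 neuronal markers, 10 were lowest there too. The same library lay at -56.9 on the second principal component, with mutant replicate 1 at the opposite end at 58.2. Mutant replicate 1 was the highest library for lin-41, lin-46, lin-29 and lin-66. Why these values were low in mutant replicate 2 was not tested. Leaving that library out turned lin-66, lin-41 and lin-29 from below to above the control mean, at log2 differences of 0.17, 0.21 and 0.29, with BH-adjusted limma p of 0.630, 0.576 and 0.512.

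lin-42 encodes the worm relative of the circadian protein Period, and its RNA is known to rise and fall once per larval stage. It had 32.7, 29.2 and 46.6 normalized counts in control replicates 1, 2 and 3, from 30, 28 and 48 reads. In mutant replicates 1, 2 and 3 it had 75.8, 62.6 and 223, from 60, 77 and 264 reads. All mutant libraries were above all controls, as for 19.5% of all genes tested, with mutant replicate 3 far above the other mutants. The log2 difference was 1.499 (SE 0.46, 95% interval 0.48 to 2.52), a 2.83-fold difference with an interval of 1.40 to 5.73, and the BH-adjusted limma p was 0.0474.

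The call of lin-42 lay close to the threshold. It passed with the replicate block (BH-adjusted limma p 0.0112) and in count tests on the recovered reads (edgeR adjusted p 0.0376 and DESeq2 adjusted p 0.00380, which called 18.5% and 23.6% of all genes). Without mutant replicate 3 the log2 difference fell to 0.94 and the adjusted p was 0.133, and the call was also lost without control replicate 1, 2 or 3 (adjusted p 0.128, 0.141 and 0.0739). The direction was the same in each of these fits. Mutant replicate 3 was also the highest library for 3 of the 8 epidermal and seam markers tested. The others were highest elsewhere: elt-1, called lower, in control replicate 1, elt-3 and nhr-25 in control replicate 3, and lin-26 and grd-10 in mutant replicate 1. Of those 3, the collagen gene dpy-7 passed the filter only through the mutants. It had 7.62, 7.30 and 9.71 normalized counts in controls and 12.6, 22.8 and 59.1 in mutant replicates 1, 2 and 3. For bus-8 that library had 109.7 against 29.3 to 66.4 in the other 5, and for che-14 it had 52.3 against 15.6 to 21.5. Over the 10 epidermal and seam markers the summed level was 1968 to 2288 in controls and 1568 to 2239 in mutants. Of 8 tested, 0 were higher and 1 lower past the threshold, where 7.56% of all genes were higher and 10.5% lower. Of the same 8, 3 were highest in mutant replicate 3, as were 12.2% of all genes. The part of epidermal RNA in the lin-42 value was not tested.

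The genes most like lin-42 over the 6 libraries, by Pearson r of log2(value + 1) among 12076 genes with a mean of at least 50, were dsh-2, gyg-2 and C27C12.1. Their r values were 0.992, 0.983 and 0.982. All 3 were likewise highest in mutant replicate 3, dsh-2 at 278 normalized counts against 80.6 to 97.1 in controls. The r values describe 6 libraries and rest largely on the group difference and on that library.

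**Figure D3:**
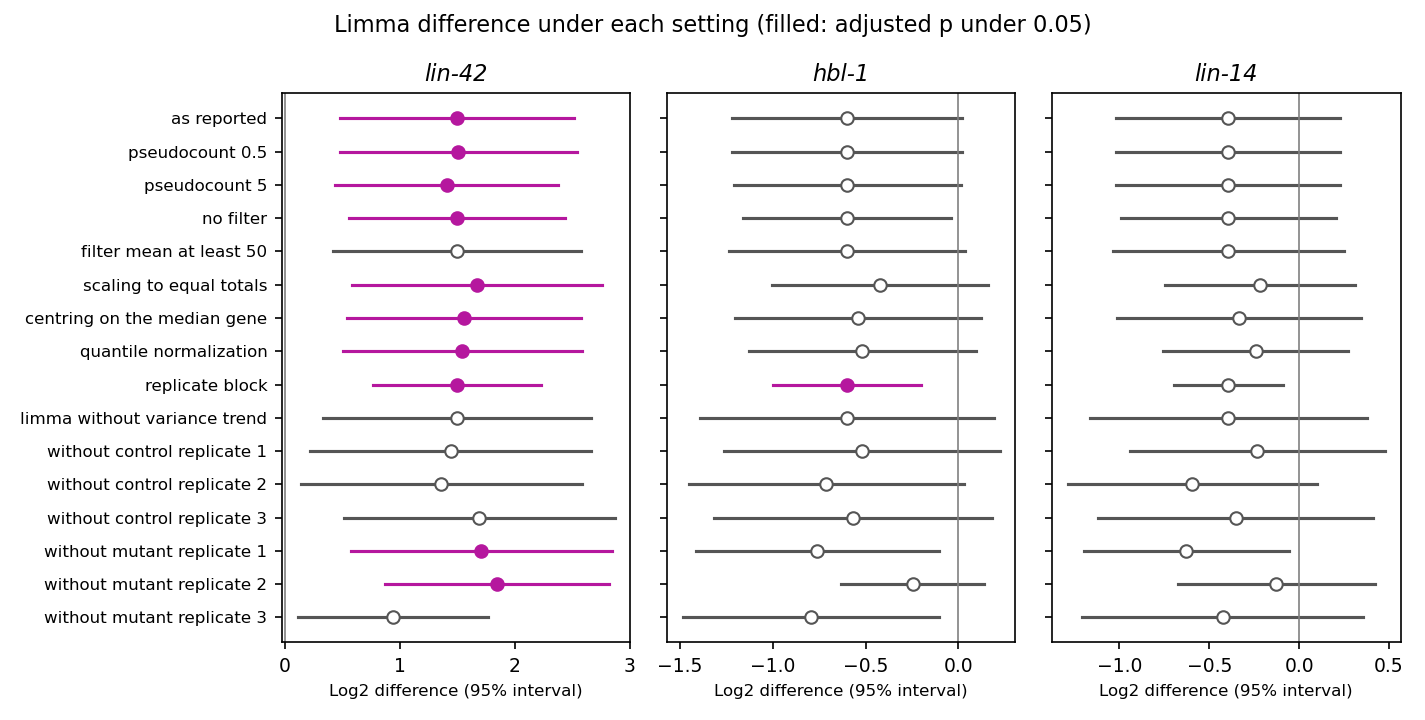
Limma log2 difference, mutant minus control, with its 95% interval for lin-42, hbl-1 and lin-14 (panels) under each setting (rows), filled where the adjusted p was under 0.05. lin-42 lay above 0 in each of the 16 settings drawn but passed in 10 of them, hbl-1 passed with the replicate block alone, and lin-14 passed in 0.

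Of the late genes, lin-46, a gephyrin-like protein that acts downstream of lin-28, was the least variable. It had 119.8, 107.4 and 113.6 normalized counts in control replicates 1, 2 and 3, and 126.4, 110.5 and 120.7 in mutant replicates 1, 2 and 3. The groups overlapped, and the log2 difference was 0.07 (SE 0.21, 95% interval -0.41 to 0.54, BH-adjusted limma p 0.844). These values came from 100 to 143 reads per library.

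lin-29, an EGR-family zinc-finger factor that drives the switch to the adult programme, had 111.1, 80.3 and 138.8 normalized counts in control replicates 1, 2 and 3. In mutant replicates 1, 2 and 3 it had 140.3, 69.1 and 123.2. In both groups replicate 2 was the lowest. The group difference was -0.02 on the log2 scale (SE 0.32, 95% interval -0.74 to 0.71, BH-adjusted limma p 0.975), with a sign that depends on the scaling. lin-29 shares exon sequence with hmg-12 on the other strand, which had 87.1, 94.9 and 98.0 normalized counts in controls and 149.1, 195.1 and 131.7 in mutants. How the strand was used in counting is not stated, so reads of these overlapping genes could not be told apart.

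lin-66, which restrains lin-28 and so promotes later fates, had 10936, 8719 and 11019 normalized counts in control replicates 1, 2 and 3. In mutant replicates 1, 2 and 3 it had 14059, 5796 and 9368, so that the mutant libraries enclosed the range of the controls. On the log2 scale the difference was -0.15 (SE 0.29, 95% interval -0.80 to 0.49, BH-adjusted limma p 0.736), and it turned to 0.02 with equal totals. The intervals of lin-28, lin-41, lin-46 and lin-66 lay within 1 log2 unit on either side of 0, and that of lin-29 did too, whereas those of lin-14 and hbl-1 reached below -1. A p above the threshold does not show that levels were equal.

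Other genes of the pathway were read from 4 lists of 35 genes in all, of which 27 passed the filter. Of these, 5 rose and 0 fell (18.5% of those tested, against 18.1% of all genes), a share near the background. At an unadjusted limma p under 0.05, 8 were higher and 1 lower (34.8% of all genes were under it), and with the replicate block 7 rose and 1 fell (26.3% of all genes). The 5 were the microRNA-pathway genes dcr-1, pash-1 and xrn-2 and the timing regulators mab-10 and nhr-85. Of these, mab-10 passed the filter only because its mutant libraries were high.

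The microRNA genes themselves were scarcely covered. The lin-4 locus, whose product represses lin-14 and lin-28, had 54.4, 73.01 and 52.4 normalized counts in control replicates 1, 2 and 3 and 32.9, 50.4 and 41.4 in mutant replicates 1, 2 and 3. All mutant libraries were below all controls, as for 20.4% of all genes, at a log2 difference of -0.52 (SE 0.30, BH-adjusted limma p 0.249). let-7 and mir-48 were listed at 0 in every library, which allows up to 2.44 to 3.79 normalized counts per library, the worth of 3 reads. mir-84 and mir-241 had at most 2 reads in any library. Such reads need not come from mature microRNAs.

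Of 10 genes for microRNA processing and function, 3 rose and 0 fell by limma, where 7.56% of all genes rose and 18.1% were called. With the replicate block 4 rose and 1 fell, where 26.3% of all genes were called, and edgeR gave 4 and 0. dcr-1, which encodes Dicer, the enzyme that cuts microRNA precursors, had 2308, 2652 and 2223 normalized counts in controls and 4124, 4756 and 3963 in mutants. The groups were well apart, with a log2 difference of 0.84 (SE 0.16, BH-adjusted limma p 0.00773). pash-1, the partner of Drosha in the first cut, had 65.3, 84.5 and 62.1 in controls and 136.5, 134.1 and 120.7 in mutants. Its log2 difference was 0.89 (SE 0.24, BH-adjusted limma p 0.0303), a call lost when any one library was left out, with adjusted p of 0.05002 to 0.101.

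xrn-2 encodes an exoribonuclease that degrades mature microRNAs in the worm, besides nuclear RNA. Its normalized counts were 436, 482 and 404 in controls and 871, 980 and 859 in mutants. Mutants exceeded controls by 1.04 log2 units (SE 0.16, BH-adjusted limma p 0.00325), and dcr-1 and xrn-2 passed in each of the 17 alternatives. The Drosha gene drsh-1 and the GW182-type gene ain-2 missed the threshold as reported but passed in 7 and 2 of the 17 alternatives, the replicate block among them (log2 differences 0.55 and -0.43, adjusted p 0.0402 and 0.0418, against 0.0560 and 0.0699 without it). The Argonaute genes alg-1 and alg-2 had log2 differences of -0.21 and 0.12 (BH-adjusted limma p 0.674 and 0.643).

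Of 15 other timing regulators, 14 were tested, 2 rose and 0 fell, a share near the 18.1% of all genes called. mab-10 encodes a NAB-type cofactor that acts with LIN-29. It had 4.36, 8.34 and 10.7 normalized counts in control replicates 1, 2 and 3, from 4, 8 and 11 reads, and 27.8, 52.0 and 67.5 in mutant replicates 1, 2 and 3, from 22, 64 and 80 reads. Its control mean of 7.79 was under the filter of 10, so it was tested only because the mutant libraries were high. It is 1 of the 5 called, but its call gives no support to that count. All mutant libraries were above all controls, as for 19.5% of all genes tested. The log2 difference was 2.49 (SE 0.49, 95% interval 1.40 to 3.59, BH-adjusted limma p 0.00878). mab-10 shares exon sequence with R166.2 on the other strand, which had 629, 506 and 546 normalized counts in controls and 827, 740 and 637 in mutants, so a share of R166.2 reads in the mab-10 values cannot be told apart.

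nhr-85, a nuclear receptor of the Rev-Erb type that drives pulses of lin-4 transcription, had 179.7, 177.3 and 199.0 normalized counts in controls and 319, 430 and 390 in mutants. Its log2 difference was 1.02 (SE 0.19, 95% interval 0.59 to 1.45, BH-adjusted limma p 0.00743). It overlaps exons of npr-14 on the other strand, and npr-14 had 1717, 1445 and 1312 in controls and 1133, 857 and 832 in mutants, the opposite direction. nhr-85 passed in each of the 17 alternatives, and mab-10 in each of the 16 that tested it. Apart from the fit without a filter, these tested mab-10 only because its mutant libraries were high, so they add no support to its call. lep-2, a Makorin-type timing gene, passed in 3 of the 17, the replicate block among them (log2 difference 0.51, BH-adjusted limma p 0.0440, against 0.0751 without it). The vitamin D receptor-like gene daf-12, the lin-4 activator myrf-1 and the molting-clock receptor nhr-23 had log2 differences of -0.27, 0.26 and 0.00, with BH-adjusted limma p of 0.574, 0.616 and 0.995.

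**Figure D4:**
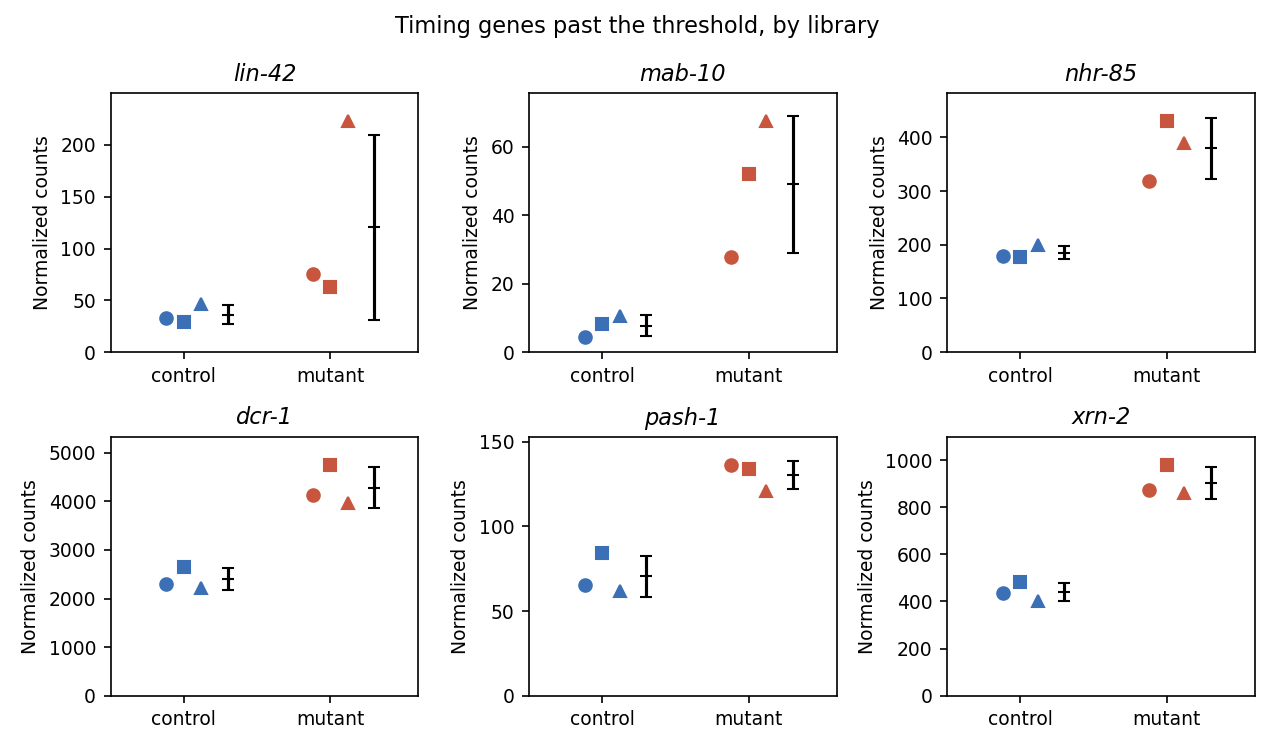
Normalized counts of the 6 timing genes past the threshold in each library (circle, square and triangle for replicates 1, 2 and 3), with mean ± SD (n = 3) beside each group. In each panel all mutant libraries lie above all controls, as for 19.5% of all genes tested, but the genes drawn were chosen by their calls. The mutant values of lin-42 run from 62.6 to 223.

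Germline markers rose in the same libraries. Of 9 tested, 4 rose and 0 fell, where 7.56% of all genes rose. With the replicate block, which called 26.3% of all genes in either direction, 6 rose. The summed level of the list was 501 to 673 normalized counts in controls and 1082 to 1420 in mutants, with no marker at 0 in all libraries. The part of germline RNA in the dcr-1, pash-1, xrn-2, nhr-85 and mab-10 values was not tested. Of 10 glial markers, 1 rose and 2 fell (1 and 4 with the block), where 18.1% of all genes were called in either direction, with a summed level of 2021 to 2792 in controls and 1327 to 1878 in mutants. Of 9 intestinal markers tested, 1 rose and 0 fell (2 rose with the block), beside the same 18.1%, with 24424 to 34032 in controls and 19966 to 36094 in mutants.

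Downstream readouts of the pathway were near the floor. Of 5 genes, the neuropeptide gene nlp-45 and the sex-and-timing gene mab-3 passed the filter, with 20.9 to 27.2 and 10.7 to 16.7 normalized counts in controls and 28.7 to 37.4 and 15.2 to 40.5 in mutants. Neither passed the test, at log2 differences of 0.47 and 0.65 (BH-adjusted limma p 0.346 and 0.367). The adult collagen gene col-19, a target of LIN-29, had at most 5.91 normalized counts in any library, and the insulin-like gene ins-33, a target repressed by LIN-14, at most 8.44. The remaining gene, dmd-3, was not tested either. It had 2.91 to 8.71 normalized counts in controls and 2.44 to 13.5 in mutants, highest in mutant replicate 3.

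**Figure D5:**
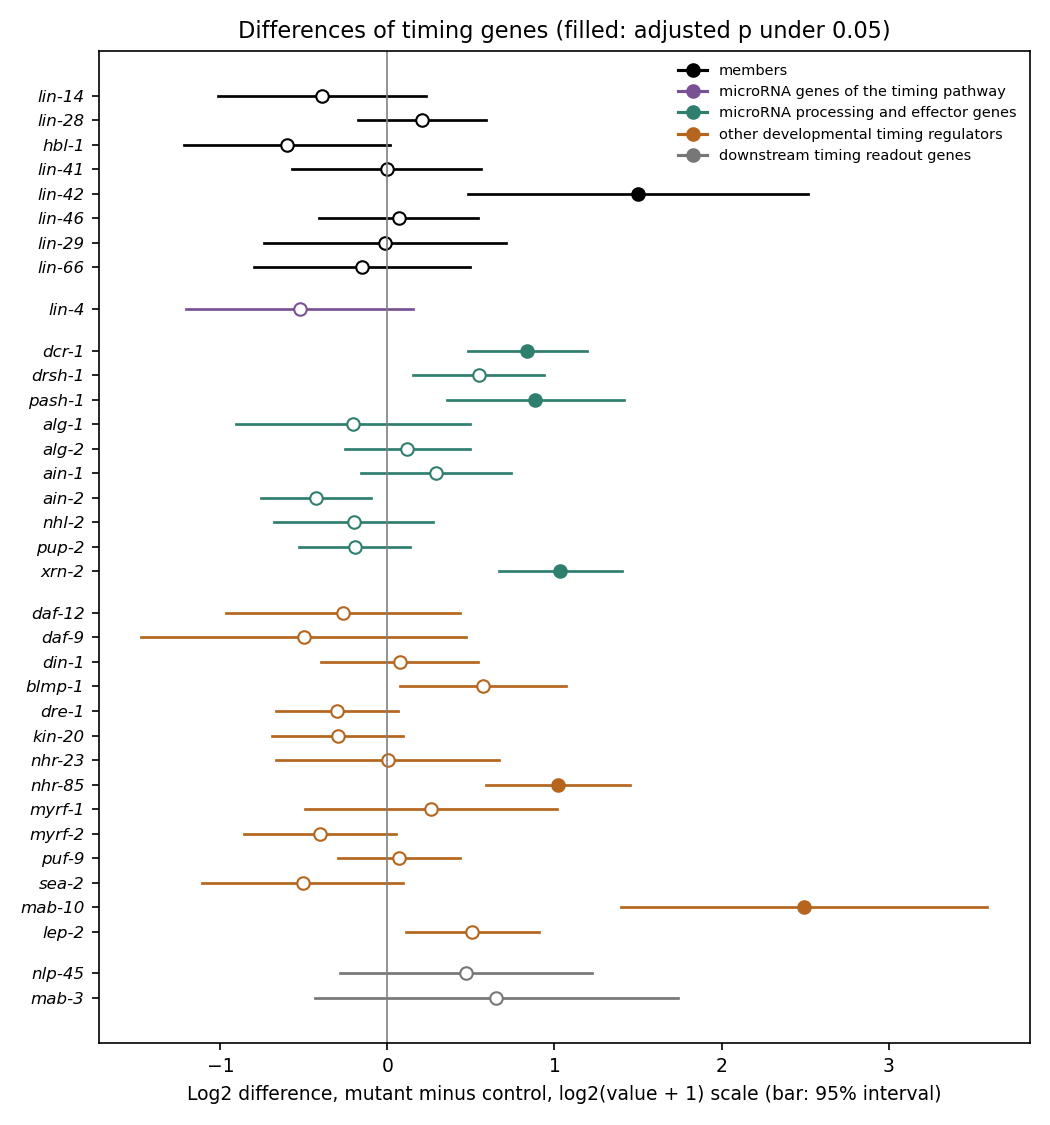
Log2 difference, mutant minus control, with its 95% interval for the 8 genes (black) and the 27 tested genes of the 4 pathway lists (colours), filled where the limma adjusted p was under 0.05. Filled points are lin-42 among the 8 and dcr-1, pash-1, xrn-2, nhr-85 and mab-10 among the rest, all to the right of 0.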

How the data were processed

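The authors deposited a normalized signal, that is, read counts per gene scaled by DESeq2 size factors, as the name of the table says. STAR, featureCounts and DESeq2 are named, without versions, per the submitters' processing notes. Build, annotation, strand use and treatment of multi-mapped reads are not given in the sources used here. Every value was a whole multiple of the worth of 1 read (100% whole within 0.001 reads). The main test was limma 3.58.1 (R 4.3.3) on log2(normalized count + 1), group as sole factor, empirical Bayes with a variance trend, and p-values adjusted by Benjamini and Hochberg (BH) over the 17900 genes with a mean of at least 10, with a threshold of 0.05. edgeR 4.0.16 (quasi-likelihood, TMM) and DESeq2 1.42.0 on recovered reads called 3309 and 4225 genes. Fits were tested on simulated data. Same-numbered libraries, paired through the replicate numbers in the titles, deviated together from their group means (correlations across genes of 0.254, 0.196 and 0.146), so values with a replicate block are given where they change a call. Replicates differed beyond counting noise (chi-square per degree of freedom 19.8 to 82.4). Nothing states that they were separate cultures, so p-values measure the spread between these libraries, which may be technical. The 3-read floor and read numbers cover counting error only. Exon lengths, gene names (95.98% of symbols matched) and overlaps came from Ensembl release 115 of WBcel235, whose coordinates are not printed, since the authors' build is not given. The 8 genes, the 4 pathway lists and the marker lists, drawn from general knowledge of the worm, were chosen with earlier results of these data known. Every gene of the 4 lists past the threshold is named, with the 3 genes most like each called member. Other genes named from the lists were chosen after their values were seen. The intestinal marker opt-2 was not matched.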

Additional observations from a re-analysis of the deposited data

How the results depend on the processing

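The alternatives were a pseudocount of 0.5 or 5, a minimum mean of 50 or none, equal totals, median centring, quantile normalization, the replicate block, limma without a variance trend, edgeR, DESeq2, and leaving out each library. The median gene lay at -0.02 log2 as deposited and at 0.15 with equal totals. The directions of lin-14, lin-28, hbl-1, lin-42 and lin-46 held in all 17. lin-42 missed the threshold with a minimum mean of 50 (1.499, adjusted p 0.0502) and without a variance trend (1.499, adjusted p 0.0891), and spanned 0.94 to 1.85 with a library left out. Adjusted p for lin-42 lay between 0.00380 and 0.141 in the 17. hbl-1 passed with the replicate block (-0.60, adjusted p 0.0361, range 0.0361 to 0.356). lin-41, near 0, turned positive with equal totals (0.17), median centring (0.0546), quantile normalization (0.11), edgeR (0.0628) and DESeq2 (0.0493), and spanned -0.26 to 0.21 across left-out libraries. lin-29 did so too, with 0.16, 0.0427, 0.0502, 0.0427 and 0.0301 in the same order and -0.22 to 0.29. lin-66 turned positive with equal totals (0.0229) and spanned -0.46 to 0.17. The count of members called, 1 as reported, was 2 with the replicate block, 0 with a minimum mean of 50, 0 without a variance trend and 0 to 1 with a library left out. All genes called numbered 1509 to 4118 with a library left out. The microRNA processing list gave 5 with the replicate block and 5 with DESeq2, against 3, 4 with a minimum mean of 50, equal totals, median centring, quantile normalization and edgeR, and 2 in each fit that left out 1 library. The other regulators gave 1 with a minimum mean of 50, where mab-10 was not tested, 4 with equal totals and 2 to 4 with a library left out, against 2. The cause was not tested for any of them. The microRNA gene and downstream lists gave 0 throughout. Low read numbers limit the values of mab-10 and lin-42, with controls of 4 to 11 and 28 to 48 reads. They also limit let-7, mir-48, mir-84 and mir-241, with at most 2 reads. Why these microRNA genes had so few reads was not tested.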
